A study of Homo sapiens with 21 samples.

Results

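The results concern 10 spliced long noncoding RNAs that carry small nucleolar RNAs (snoRNAs) in their introns: GAS5, SNHG1, SNHG5, SNHG6, SNHG7, SNHG8, SNHG12, SNHG15, ZFAS1 and EPB41L4A-AS1. They were found by gene symbol from the Ensembl identifiers of the count table, all 10 among its 37637 features, a match that used no measured value, though the list itself was drawn up with earlier results of these data known. RNA came from HepG2, a human hepatocellular carcinoma cell line, after 24 h without serum in DMEM with 0.01, 0.1, 1, 10, 100 or 1000 µM caffeine, or with no caffeine in the control. Each of the 7 groups had 3 libraries, which the labels call biological replicates. The cells of every group, the control included, had lost their serum at the start of exposure, and caffeine was dissolved in the medium itself. The comparisons ask at which doses each of these RNAs departed from control and whether the 10 did so together.

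A snoRNA host gene is transcribed and spliced like an mRNA, and the snoRNAs are released from the excised introns to guide chemical modification of ribosomal and other RNAs. The spliced exons that remain encode no long protein, yet short open reading frames in them are read by ribosomes. A stop codon far upstream of an exon junction makes such RNAs known substrates of nonsense-mediated decay, a pathway that removes RNAs during translation and that depends on UPF and SMG proteins. Several hosts also begin with a terminal oligopyrimidine (TOP) tract, a C followed by further C and T residues, which ribosomal protein mRNAs share and through which mTOR signalling controls their translation.

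Total counts ran from 23502519 to 44815552 per library, and 9 of the 10 RNAs passed the filter on low counts; SNHG15 did not. The libraries fell into 3 sets by their mitochondrial mRNAs. Set A held 11 libraries (all of control, 0.01 and 0.1 µM, with replicates 1 and 2 of 1 µM), set B held 7 (replicate 3 of 1 µM, all of 10 µM, replicate 2 of 100 µM, replicates 1 and 2 of 1000 µM) and set C held 3 (replicates 1 and 3 of 100 µM, replicate 3 of 1000 µM). The mitochondrial share of counts was 4.72% to 4.94% in set B, lower than in set A (9.95% to 14.2%) or set C (11.8% to 12.8%). No control library lay outside set A and no 100 or 1000 µM library lay inside it, so set and dose cannot be fully told apart, and values are given with and without a term for the set. Only replicate 3 of 1 µM ties sets A and B within a dose. All 10 hepatocyte and HepG2 markers were above 1 CPM (counts-per-million, here on TMM-scaled library sizes) in the median library. The 5 fibroblast markers summed to at most 0.0887 CPM and the T-cell marker CD3E was at 0 in every library. Of 5 leukocyte markers only lysozyme (LYZ) was above 1 CPM, and their sum ran from 890.1 to 1021 CPM in control and from 1350 to 1905 CPM at 1000 µM. PTPRC, which defines leukocytes, was at most 0.0383 CPM. The hepatocyte and HepG2 markers summed to 35790 to 44330 CPM in control and to 29560 to 31590 CPM at 1000 µM, without overlap, and the part of either sum in the results was not tested. The endothelial markers in the table summed to at most 0.284 CPM, and HBA1, the erythroid marker there, stood at 1.17 to 3.95 CPM. In RNA from whole cultures, fewer cells of a kind and less RNA per cell cannot be told apart.

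By the GENCODE 29 annotation of GRCh38, GAS5 (ENSG00000234741.8) lies at chr1:173863900-173868882, SNHG1 (ENSG00000255717.6) at chr11:62851988-62855914, SNHG5 (ENSG00000203875.11) at chr6:85660950-85678748, SNHG7 (ENSG00000233016.6) at chr9:136721366-136728184 and SNHG12 (ENSG00000197989.14) at chr1:28578538-28583132, all on the minus strand. SNHG15 (ENSG00000232956.8) lies at chr7:44983023-44986961 on the same strand. On the plus strand, SNHG8 (ENSG00000269893.7) lies at chr4:118278709-118279823, ZFAS1 (ENSG00000177410.12) at chr20:49278178-49295738 and EPB41L4A-AS1 (ENSG00000224032.6) at chr5:112160526-112164276. RefSeq places 11 snoRNA genes within GAS5, 9 within SNHG1, 4 within SNHG12, 3 within ZFAS1, 2 each within SNHG5 and SNHG7, and 1 in each of the other 4. The hosts of C/D box snoRNAs, which guide 2′-O-methylation, include GAS5 (SNORD44, SNORD74 and others, with SNORA103, by its name of the H/ACA kind), SNHG1 (SNORD25 to SNORD31), SNHG5 (SNORD50A and SNORD50B), SNHG6 (SNORD87) and ZFAS1 (SNORD12 and relatives). SNHG7 (SNORA17A and SNORA17B), SNHG8 (SNORA24), SNHG15 (SNORA9) and EPB41L4A-AS1 (SNORA13) host H/ACA box snoRNAs, which guide pseudouridylation, and SNHG12 hosts both kinds. The snoRNAs themselves are not analysed here.

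The starts of these genes are shown because the TOP tract is read from the very first bases. RefSeq start windows (GRCh38.p14, from 40 bases before to 30 bases from the annotated start) were matched for 8 of the 10, not SNHG6 and SNHG15. In each line the unbroken run of C and T that begins with a C at the annotated start is in capitals, written 5′ to 3′ on the gene's strand.
SNHG12 (chr1:28581844-28581913): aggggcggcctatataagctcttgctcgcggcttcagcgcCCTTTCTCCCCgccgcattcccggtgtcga
SNHG5 (chr6:85678704-85678773): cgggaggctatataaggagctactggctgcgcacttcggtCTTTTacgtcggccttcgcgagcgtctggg
ZFAS1 (chr20:49278602-49278671): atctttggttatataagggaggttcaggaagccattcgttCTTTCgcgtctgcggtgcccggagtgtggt
SNHG7 (chr9:136728155-136728224): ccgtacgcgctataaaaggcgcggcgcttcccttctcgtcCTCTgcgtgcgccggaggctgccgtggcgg
SNHG1 (chr11:62855856-62855925): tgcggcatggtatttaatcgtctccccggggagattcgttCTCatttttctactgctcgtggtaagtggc
SNHG8 (chr4:118278722-118278791): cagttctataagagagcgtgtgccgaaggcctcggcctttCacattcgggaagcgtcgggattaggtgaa
The run was 11 bases in SNHG12, 5 in SNHG5 and ZFAS1, 4 in SNHG7, 3 in SNHG1 and 1 in SNHG8. It was 0 in GAS5 and EPB41L4A-AS1, whose RefSeq starts are an A and a T, so their windows hold no run to show. A run of at least 5 was present in 3 of the 8, against 60.3% of 78 ribosomal protein promoters and 4.07% of all 35116 promoters.

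The start differs between annotations, so the run was also read at each gene's commonest GENCODE start among spliced transcripts, or the first of several tied ones. For GAS5 that base lies 1056 bases from the RefSeq start and is used by 6 of 29 transcripts.
GAS5 (chr1:173867966-173867989): CTTTTCgaggtaggagtcgactcc
At these starts the run was 11 bases in SNHG12 (3 tied starts), 7 in SNHG6, 6 in GAS5, 5 in SNHG5, 4 in SNHG7 and 3 in SNHG1, whose start lies 397 bases from that of RefSeq. It was 1 in ZFAS1, 464 bases from the RefSeq start, and 1 in SNHG15 (10 tied starts). It was 0 in SNHG8 and in EPB41L4A-AS1 (4 tied starts). A run of at least 5 was thus present in 4 of 10, and at these starts ZFAS1 lacked the run it has at the RefSeq start. Over all members, 21 of 131 spliced transcripts (16.0%) began with a run of at least 5, against 2.49% of 25254 spliced transcripts of other noncoding genes. A set of 5 short motifs was searched on both strands of the 300-base RefSeq promoters, none of them contained in another. TATAA was present in 6 of 8 promoters (20.4% of all), CTTTC in 4 (54.7%) and the E-box CACGTG in 1, that of SNHG7 (7.26%). The cAMP response element TGACGTCA (1.85% of all) and TGATGNAA, the core letters of the ATF4 and CEBP composite element (3.62%), were in none of the 8 windows. A match describes letters in the window only.

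The annotated transcripts also carried the feature that decay is known to read. The first ATG-started frame of at least 10 codons ended more than 50 bases before the last exon junction in 113 of the 130 member transcripts with such a frame (86.9%), against 63.0% of 24707 other noncoding transcripts. SNHG8 had the lowest share, 2 of its 5 transcripts, and SNHG12 had it in all 16. Transcripts of a gene share exons and are not independent, so no test was made of these shares.

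At 1000 µM caffeine all 9 RNAs that could be tested were higher than in control, from 1.40-fold for SNHG6 to 3.93-fold for SNHG7. Their summed level was 547 ± 83.1 CPM (SD, n = 3) in control and 1368 ± 51.0 CPM (SD, n = 3) at 1000 µM. At 10 and 100 µM only some passed the test, in different directions, and at 0.01 to 1 µM none did. SNHG15, at a few counts per library, went the other way. Of all 17951 features tested, 28.5% passed the test as higher at 1000 µM.

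**Figure D1:**
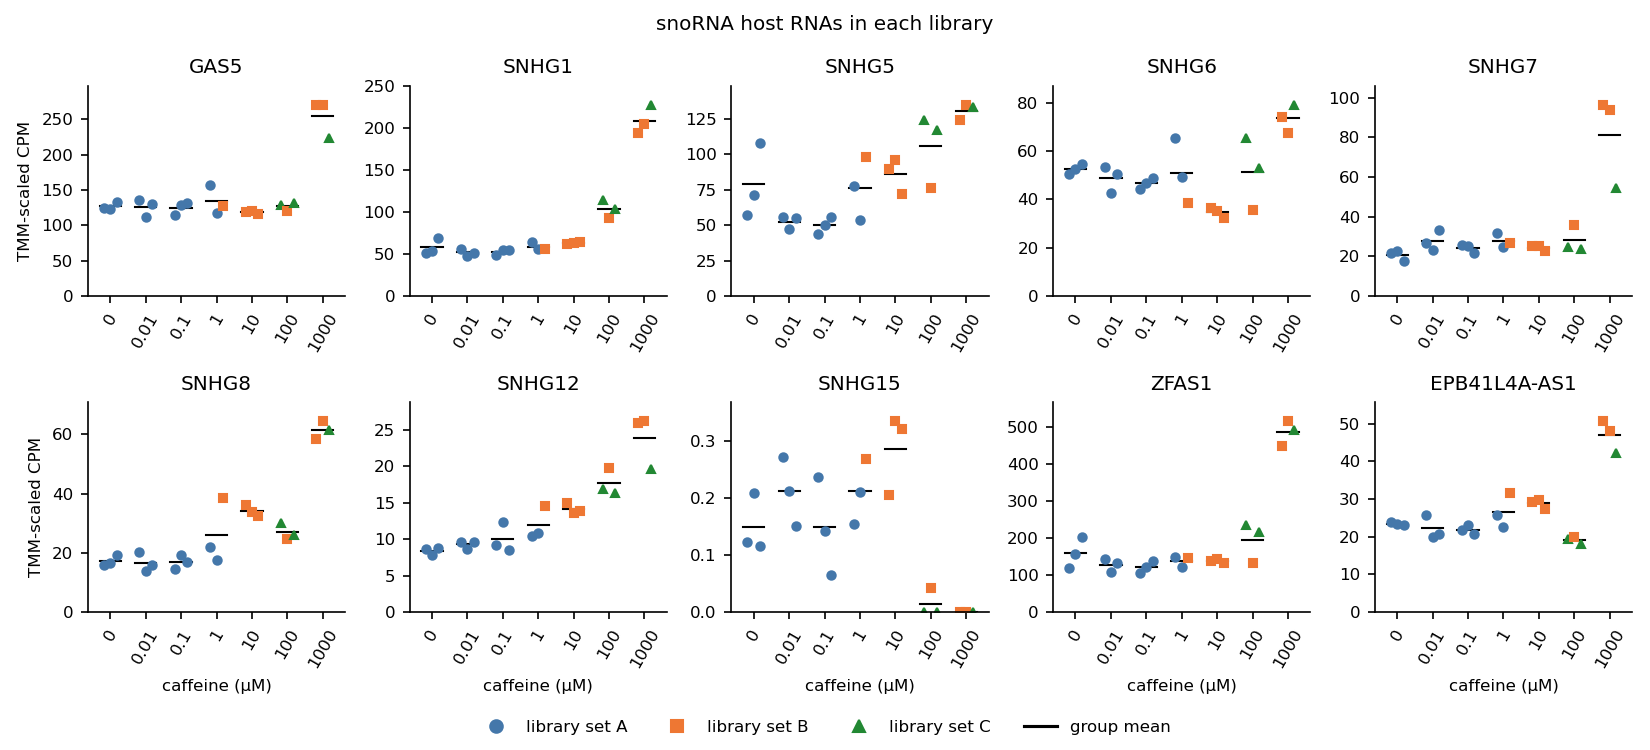
TMM-scaled CPM of the 10 RNAs in each library (y axis, linear, 1 panel per RNA) by caffeine dose in µM (x axis, 0 is control). Marker shape and colour give the library set and black lines give group means of 3 libraries. All 3 libraries at 1000 µM lie above all 3 controls in every panel except SNHG15, where they are at 0.

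Among hosts of C/D box snoRNAs, GAS5, a growth-arrest transcript known to accumulate when translation slows, stood at 125, 123 and 134 CPM in the 3 controls. It stood at 119, 120.2 and 117 CPM at 10 µM and at 129, 120.5 and 131 CPM at 100 µM. At 1000 µM it stood at 270.2, 270.4 and 224 CPM. The step therefore lay between 100 and 1000 µM, with no overlap between the 1000 µM libraries and any other, the highest of which was 157 CPM in replicate 1 of 1 µM. GAS5 rose 2.0-fold at 1000 µM (log2 1.00 ± 0.10 SE, adjusted p = 1.18e-07), and its log2 fold change at 100 µM was -0.00 (adjusted p = 0.995).

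SNHG1, the host with the next most snoRNAs, stood at 51.0, 53.9 and 69.6 CPM in the controls. It stood at 61.9, 62.8 and 64.2 CPM at 10 µM, 115, 92.7 and 104 CPM at 100 µM and 194, 205 and 227 CPM at 1000 µM. The 100 µM libraries were thus above every control and below every 1000 µM library. SNHG1 rose 1.79-fold at 100 µM (log2 0.84 ± 0.11 SE, adjusted p = 4.66e-06) and 3.59-fold at 1000 µM (log2 1.84 ± 0.11 SE, adjusted p = 6.48e-11).

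ZFAS1, named for a zinc finger gene it lies antisense to, had the highest mean in control, at 120.3, 158 and 203 CPM in the controls. Its controls spread widely, and the 138, 143 and 134 CPM at 10 µM fell inside their range. At 100 µM it stood at 236, 133 and 216 CPM, with the low library in set B and the other 2 in set C. At 1000 µM it stood at 449, 516 and 493.5 CPM, above all others, a 3.03-fold rise (log2 1.60 ± 0.19 SE, adjusted p = 1.17e-06).

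SNHG5 stood at 57.4, 71.4 and 108 CPM in the controls, a spread that reached nearly to the 124, 135 and 133 CPM of 1000 µM. At 100 µM it stood at 125, 76.3 and 117 CPM, again low in the set B library. Its 1.66-fold rise at 1000 µM (log2 0.73 ± 0.23 SE, adjusted p = 0.0112) was called in 29 of 31 alternatives. It was 0.54 without control replicate 1 (adjusted p = 0.0651) and 0.04 with the set as a term. The adjusted p of SNHG5 at 1000 µM ran from 0.00117 to 0.954 over 31 alternatives.

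SNHG6 (ENSG00000245910.8), on chromosome 8, was lower at 10 µM and higher at 1000 µM. It stood at 50.4, 52.4 and 54.6 CPM in the controls, at 36.3, 35.4 and 32.2 CPM at 10 µM and at 74.0, 67.5 and 79.1 CPM at 1000 µM. The other low values, 38.7 CPM in replicate 3 of 1 µM and 35.4 CPM in replicate 2 of 100 µM, were also in set B, while the 2 set B libraries at 1000 µM were high. SNHG6 fell by 0.60 ± 0.18 (log2, SE) at 10 µM (adjusted p = 0.0313) and rose 1.40-fold at 1000 µM (log2 0.49 ± 0.18 SE, adjusted p = 0.0248). The fall at 10 µM lost its call when any control or any 10 µM library was left out (log2 -0.55 to -0.64) and was -0.03 with the set as a term. The rise at 1000 µM lost it without control replicate 1 or 2 or 1000 µM replicate 1 or 3 (0.43 to 0.48), was called in 27 of 31 alternatives, and was 0.91 with the set as a term.

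Among hosts of H/ACA box snoRNAs, SNHG7 had the largest rise. It stood at 21.8, 22.6 and 17.7 CPM in the controls, at 24.8, 36.0 and 23.7 CPM at 100 µM and at 96.3, 93.6 and 54.3 CPM at 1000 µM. The lowest 1000 µM library, in set C, was still above every library of the other doses. SNHG7 rose 3.93-fold at 1000 µM (log2 1.98 ± 0.20 SE, adjusted p = 1.27e-07), and its 0.45 ± 0.20 at 100 µM did not pass (adjusted p = 0.0704). That value passed without 100 µM replicate 3 (0.56), without 1000 µM replicate 3 (0.45) and with the set as a term (0.96). It passed in these 3 of 31 alternatives only, over which it ran from 0.22 to 0.96. The highest 100 µM library, at 36.0 CPM, was the one in set B.

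SNHG8, a short host of a single snoRNA, stood at 15.8, 16.7 and 19.4 CPM in the controls and at 36.0, 33.9 and 32.5 CPM at 10 µM. The library of 1 µM in set B stood at 38.7 CPM, against 22.0 and 17.5 CPM in the 2 of the same dose in set A. At 100 µM SNHG8 stood at 30.2, 24.5 and 25.9 CPM and at 1000 µM at 58.3, 64.5 and 61.6 CPM. All set B and C libraries were above all set A libraries, and within set B the 1000 µM libraries were above the rest. SNHG8 rose 1.98-fold at 10 µM (log2 0.98 ± 0.21 SE, adjusted p = 0.00671), 1.56-fold at 100 µM (0.64 ± 0.21, adjusted p = 0.0174) and 3.56-fold at 1000 µM (1.83 ± 0.21, adjusted p = 6.11e-07). The call at 100 µM was lost without control replicate 1 (0.58, adjusted p = 0.0666), control replicate 2 (0.61, 0.0543) or 100 µM replicate 1 (0.55, 0.0693). With the set as a term the 3 values were 0.01, -0.40 and 0.83, of which the last passed (adjusted p = 0.0092, the largest over 31 alternatives).

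SNHG12, which hosts both kinds, was called higher at each of the 3 highest doses, as SNHG8 was. It stood at 8.65, 7.76 and 8.78 CPM in the controls and at 14.9, 13.6 and 13.9 CPM at 10 µM. It stood at 16.8, 19.8 and 16.3 CPM at 100 µM and at 25.9, 26.2 and 19.5 CPM at 1000 µM. The controls lay below all libraries of 1 µM and above, and the lowest 1000 µM value lay just under the highest of 100 µM. SNHG12 rose 1.69-fold at 10 µM (log2 0.75 ± 0.15 SE, adjusted p = 0.00465), 2.11-fold at 100 µM (1.08 ± 0.15, adjusted p = 1.07e-05) and 2.85-fold at 1000 µM (1.51 ± 0.15, adjusted p = 7.02e-08). With the set as a term the last 2 remained called, at 0.84 and 1.16, and the first was 0.31.

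EPB41L4A-AS1, which overlaps and lies antisense to the gene it is named for, stood at 23.9, 23.4 and 23.0 CPM in the controls. It stood at 29.3, 29.8 and 27.5 CPM at 10 µM, 19.5, 20.0 and 18.04 CPM at 100 µM and 50.7, 48.1 and 42.3 CPM at 1000 µM. The values were thus above control at 10 µM, below at 100 µM and above at 1000 µM, without overlap in any of the 3. EPB41L4A-AS1 rose 2.0-fold at 1000 µM (log2 1.00 ± 0.12 SE, adjusted p = 4.44e-07) and fell by 0.29 ± 0.12 at 100 µM (adjusted p = 0.0474). The fall lost its call in 21 of 31 alternatives, among them 16 of the 21 that left out a single library, with values of -0.25 to -0.32 in these 21. The 10 µM value, 0.30 ± 0.11, did not pass (adjusted p = 0.0850). All libraries of 10 µM were in set B, and the 1 µM library of that set stood at 31.7 CPM. The 1 µM libraries in set A stood at 25.8 and 22.5 CPM. With the set as a term the values at 10, 100 and 1000 µM were -0.09, -0.58 and 0.66, of which the first was not called.

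SNHG15 had few counts in every library. Whether some of its reads were counted under an unannotated feature of the table was not tested, so its values describe the annotated feature only. Its counts ran from 2 to 13 in the 15 libraries below 100 µM, 106 in all, and were 0, 2 and 0 at 100 µM and 0 in all 3 libraries at 1000 µM. Summed over a group and divided by the group's total count, its level was 0.150 CPM in control and 0.308 CPM at 10 µM. The count of 0 at 1000 µM allows up to 0.0332 CPM (3 counts of the group's total), and the 95% exact interval of its ratio to control reached 0.310. At 100 µM, 2 counts gave a ratio to control of 0.139 (95% exact interval 0.0154 to 0.597). These bounds hold counting error alone: reads were not tagged per molecule, and the spread between cultures is not in them. It failed the low-count filter in the fit over all libraries and has no test there, so "all 9" above never includes it.

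Read against the background, the counts of called RNAs differed by dose. At 0.01, 0.1 and 1 µM, edgeR called 0 of 9 RNAs, where it called 0.0279%, 0.0% and 0.106% of all features. At an unadjusted p under 0.05 these doses had 2, 2 and 3 of the 9 (2698, 1701 and 2811 of 17951 features), and limma-voom and DESeq2 called none except SNHG12 at 1 µM by DESeq2. At 10 µM 3 of 9 were called, 2 higher and 1 lower, where 14.8% of features were called (7.27% higher, 7.49% lower). At 100 µM 4 of 9 were called, 3 higher and 1 lower, where 46.6% of features were called (23.6% higher, 22.9% lower), so this share is near the background. That count was 2, both higher, without control replicate 1, control replicate 2 or 100 µM replicate 1, and 5 without control replicate 3, 100 µM replicate 2 or 1000 µM replicate 3. At 1000 µM 9 of 9 were called, all higher (7 without control replicate 1, 8 without control replicate 2 or 1000 µM replicate 1 or 3), where 57.6% of features were called and 28.5% were called as higher. The median log2 fold change of the 9 was 1.51 at 1000 µM, 0.43 at 100 µM and 0.13 at 10 µM, and that of all features was -0.01, -0.01 and 0.00. These comparisons share the same 3 control libraries. The test of all 7 groups at once called 9 of 9 and 73.6% of features. With the library set as a term this test called all but SNHG5 (adjusted p = 0.0520), and 10743 of 17951 features.

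By overlap of libraries, all 9 had every 1000 µM library above every control, as 28.1% of features did. At 100 µM SNHG1, SNHG7, SNHG8 and SNHG12 were wholly above control (25.8% of features) and EPB41L4A-AS1 and SNHG15 wholly below (25.3%). At 10 µM SNHG7, SNHG8, SNHG12 and EPB41L4A-AS1 were wholly above (20.5%) and GAS5 and SNHG6 wholly below (19.3%).

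With the library set as a term, 8 of 9 stayed higher at 1000 µM, where 38.0% of features were called and 18.2% were called as higher. SNHG5 was the exception. The fitted values were largest for SNHG7 (log2 2.25 ± 0.23 SE), SNHG1 (1.86 ± 0.18) and ZFAS1 (1.37 ± 0.34). At 100 µM with the term SNHG1 (0.78), SNHG7 (0.96) and SNHG12 (0.84) were called higher and EPB41L4A-AS1 (-0.58) lower, where 17.3% of features were called (9.14% higher, 8.21% lower). At 10 µM none was called, where 0.0279% of features were called and 886 had an unadjusted p under 0.05. The term rests on the single 1 µM library that joins sets A and B, and the standard errors of all 9 at 1000 µM were wider with it.

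**Figure D2:**
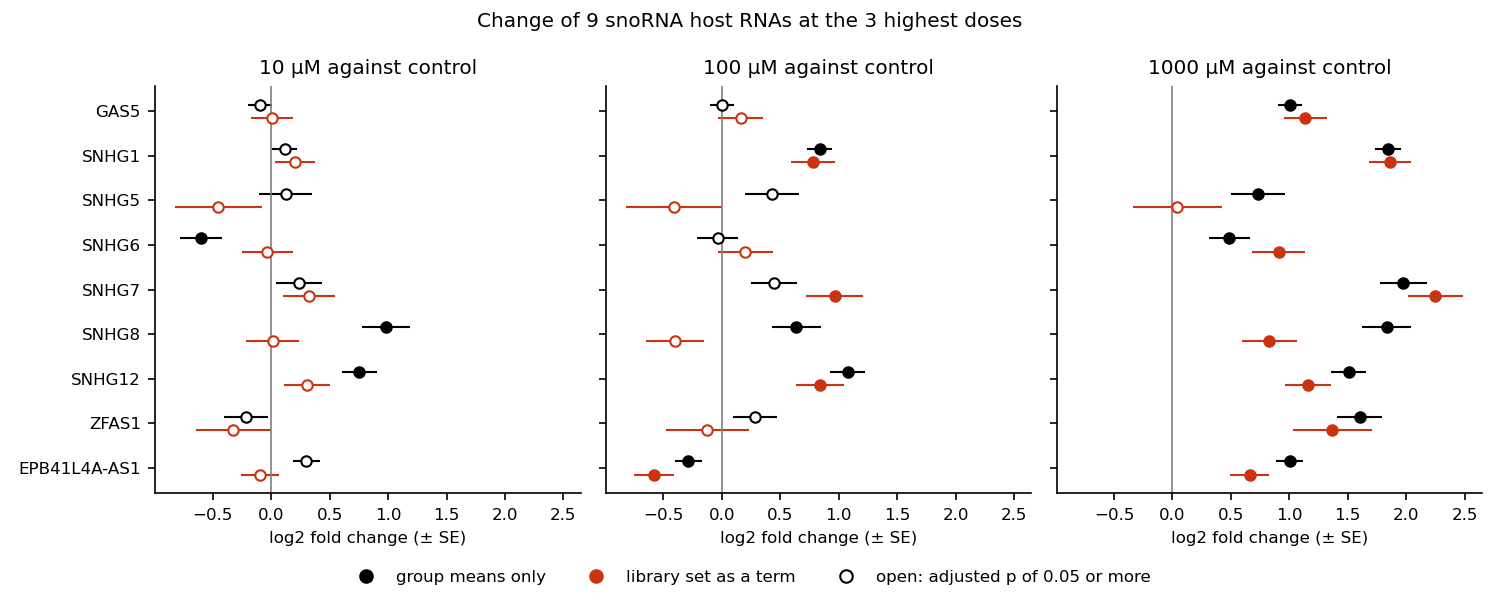
Log2 fold change against control (x axis, bars ± 1 SE) of the 9 tested RNAs at 10, 100 and 1000 µM (panels), from the fit on group means (black) and with the library set as a term (red). Filled points had an adjusted p under 0.05: at 1000 µM these are all 9 without the term and all but SNHG5 with it.

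The difference of means between the upper doses leaves out the control libraries, which still enter the filter, the scaling and the spread of the fit. Against 100 µM, 8 of 9 RNAs were higher at 1000 µM, where 44.0% of features were called and 21.8% as higher. SNHG7 (log2 1.53 ± 0.20 SE), ZFAS1 (1.32 ± 0.19) and EPB41L4A-AS1 (1.29 ± 0.12) had the largest differences, and SNHG5 (0.30 ± 0.23) was not called. The call for SNHG12 (0.43) was lost without 100 µM replicate 1 or 3 or 1000 µM replicate 1 or 2 (0.36 to 0.39). That for SNHG6 (0.52) was lost without 100 µM replicate 2 (0.31), 1000 µM replicate 1 (0.52) or 1000 µM replicate 3 (0.46). Against 10 µM all 9 were higher, where 52.1% of features were called and 26.1% as higher, with SNHG5 (0.60) losing its call in 7 of 31 alternatives. Both comparisons share the 1000 µM libraries with each other and with the comparison to control.

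Libraries of the same set could be compared across these doses. Within set B the 2 libraries of 1000 µM against the 3 of 10 µM gave log2 ratios of mean CPM from 0.59 for SNHG5 to 1.96 for SNHG7, with a median of 1.03 over the 9. In a fit on set B alone, all 9 were higher, as 31.5% of features were. SNHG15 passed the filter there only through its 10 µM libraries, at counts of 7, 13 and 11 against 0 and 0 at 1000 µM, so no call is given for it. Against the single set B library of 100 µM the ratios ran from 0.39 for SNHG12 to 1.85 for ZFAS1. In set C, where 1 library of 1000 µM faces 2 of 100 µM, they ran from 0.14 for SNHG5 to 1.17 for EPB41L4A-AS1. All 9 were above 0 in each of the 3 comparisons. The share of all features above 0 was not computed for these ratios. In the fit on set B alone the median log2 fold change of all features was -0.02 for 1000 against 10 µM. Both set B comparisons use the same 1000 µM libraries. SNHG5 and SNHG12 had the 2 lowest ratios in both comparisons with 100 µM.

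**Figure D3:**
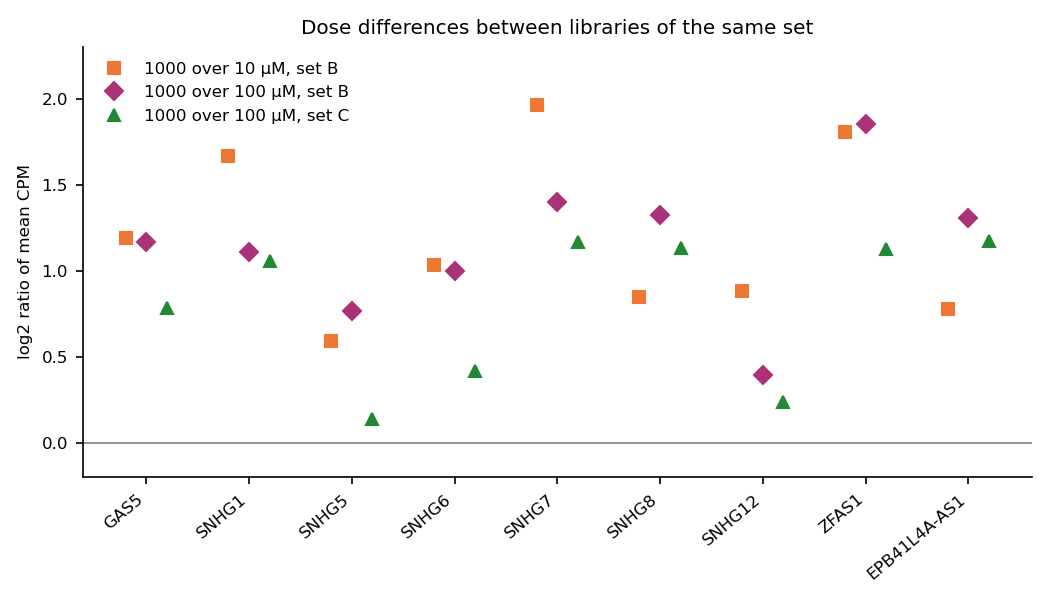
Log2 ratio of mean CPM (y axis) of the 9 tested RNAs (x axis) between 1000 µM and a lower dose within 1 library set. Squares are 1000 over 10 µM in set B, diamonds 1000 over 100 µM in set B and triangles 1000 over 100 µM in set C; every point lies above 0, the lowest being SNHG5 in set C at 0.14.

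Per kilobase of annotated exon, the control level was highest for ZFAS1 (71.5 ± 18.5 CPM per kb, SD, n = 3), then SNHG6 (42.1 ± 1.69), GAS5 (35.02 ± 1.56), SNHG5 (28.1 ± 9.27), SNHG8 (18.7 ± 2.05) and SNHG1 (15.5 ± 2.66). EPB41L4A-AS1 (7.02 ± 0.13), SNHG7 (4.76 ± 0.61), SNHG12 (1.97 ± 0.13) and SNHG15 (0.0407 ± 0.0141) followed. GAS5 and SNHG5, SNHG5 and SNHG8, and SNHG8 and SNHG1 overlapped between their control libraries, and the other neighbours in this order did not. At 1000 µM the order was ZFAS1 (217 CPM per kb), GAS5 (70.2), SNHG8 (66.6), SNHG6 (59.0), SNHG1 (55.6), SNHG5 (46.6), SNHG7 (18.7), EPB41L4A-AS1 (14.1) and SNHG12 (5.59), with SNHG15 at 0. At that dose the libraries of GAS5, SNHG8 and SNHG6 overlapped one another, as did those of SNHG6 and SNHG1 and those of SNHG7 and EPB41L4A-AS1, so the order within these is not resolved. Exon lengths are unions over GENCODE 29 transcripts, which only approximate the annotation behind the counts, since 66.5% of the Ensembl identifiers carry the same version there.

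Across the 21 libraries the members varied together to differing degrees. Pearson's r of log2 CPM between pairs had a median of 0.75 over the 36 pairs, from 0.25 for SNHG6 with SNHG12 to 0.95 for SNHG1 with ZFAS1. After the group means were removed the median was 0.37 and the range -0.48, again SNHG6 with SNHG12, to 0.88. These are descriptions without a test, since the points share dose, library set and scaling. Of 10608 features with a mean of at least 5 CPM, those most like the mean of the 9 were RSL24D1 (r = 0.98), a protein of ribosome assembly, CEBPG (0.98), a transcription factor that pairs with ATF4, GLRX (0.98), a glutaredoxin, the antisense RNA DSP-AS1 (0.97) and CYP39A1 (0.97), an oxysterol hydroxylase. With group means removed they were DPY30 (0.93), a subunit of histone methyltransferase complexes, MAGOH (0.92), a core protein of the exon junction complex, SAP18 (0.91), BLOC1S2 (0.91) and CMC2 (0.91).

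The other genes of these pathways are given by list, to be read against the 28.5% of features called higher and 29.1% called lower at 1000 µM, or 18.2% and 19.8% with the set as a term. Of 15 other noncoding snoRNA hosts tested, 9 were higher and 0 lower at 1000 µM (median log2 0.65), and 6 and 0 with the set as a term (0.19). SNHG11 went from 2.49 ± 0.17 to 12.3 ± 3.28 CPM (SD, n = 3; log2 2.3) and SNHG29 from 228 ± 24.3 to 667 ± 97.8 CPM (1.55). SNHG17 (1.45) and SNHG3 (1.41) also rose, and all 4 of these were called with the term too. Of 36 protein-coding snoRNA hosts, 14 were higher and 7 lower (median 0.10), and 11 and 0 with the term (0.06). The largest rises named there were EIF4A2, an RNA helicase of translation initiation, from 150 ± 16.1 to 486 ± 59.5 CPM (1.70), and the import receptor IPO7 (1.38). HSPA9 (0.80) and SF3B3 (0.42) rose less. At 100 µM the 15 other noncoding hosts had 11 higher and 0 lower (median 0.79), where 23.6% and 22.9% of features were. With the term these were 6 and 0 (0.39), where 9.14% and 8.21% of features were. From 100 to 1000 µM 4 of the 15 were higher and 2 lower (median 0.02), where 21.8% and 22.3% of features were. The step of the 9 between these doses was thus not seen in this list as a whole.

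The 2 lists of TOP mRNAs had medians below that of the 9, with RPL34 and EIF4A2 (1.70) above most of the 9; no test of this was made. Of 79 ribosomal protein genes, 38 were higher and 7 lower at 1000 µM (median 0.38), but 9 and 1 with the term (median 0.05). RPL14 (0.68), RPL34 (1.89) and RPL36 (1.06) were higher and RPL7A (-0.71) was lower, and with the term RPL14 (0.56) and RPL34 (0.63) remained called. Of 18 other TOP mRNAs, 7 were higher and 1 lower (median 0.13), and 8 and 1 with the term (0.31), among them EIF2S3 (0.82), a subunit of initiation factor eIF2, NAP1L1 (0.63) and EEF1B2 (0.51, not called with the term). Between 100 and 1000 µM the ribosomal protein genes showed 2 higher and 4 lower of 79 (median -0.05; 21.8% and 22.3% of features), where the 9 hosts showed 8 higher (median 1.01) and all features a median of 0.00. That count changed with the libraries used: it was 30 higher and 9 lower (median 0.12) in set B alone, where 23.2% and 27.8% of features were. There 100 µM is a single library, assumed to vary like the 10 and 1000 µM libraries, which give the spread. In sets B and C with the set as a term it was 14 and 11 (0.06), where 22.0% and 24.6% of features were.

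Decay factors were called in shares near the background in both directions without the term. Of 25 decay factors, 7 were higher and 7 lower at 1000 µM (median 0.09), and 7 and 3 with the set as a term (0.01). UPF2, which bridges UPF1 to the exon junction complex, went from 147 ± 11.3 to 75.9 ± 2.25 CPM (log2 -0.95) and UPF3B from 45.9 ± 6.13 to 23.0 ± 1.78 CPM (-0.999). NBAS, a decay factor that also acts in vesicle transport, went from 26.3 ± 2.88 to 97.4 ± 14.3 CPM (1.89) and the exonuclease XRN1 from 20.1 ± 2.80 to 52.9 ± 12.1 CPM (1.40). All 4 were called in the same direction with the term. They were also called at 100 µM against control, UPF2 at -1.03, UPF3B at -1.275, NBAS at 1.44 and XRN1 at 0.56. From 100 to 1000 µM NBAS (0.45) and XRN1 (0.84) rose further, and UPF2 (0.08) and UPF3B (0.28) were not called. Of 12 protein-coding RNAs known as decay targets, 5 were higher and 3 lower at 1000 µM against control (median 0.09), and 5 and 3 with the term (0.08). UPP1 (1.91), ATF3 (1.64) and ATF4 (1.17), the last 2 being stress-response transcription factors, rose, and MAP3K14 (-1.19) fell. Some genes belong to more than 1 of these lists, such as EIF4A2 and EEF1B2, and no list was tested as a set.

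**Figure D4:**
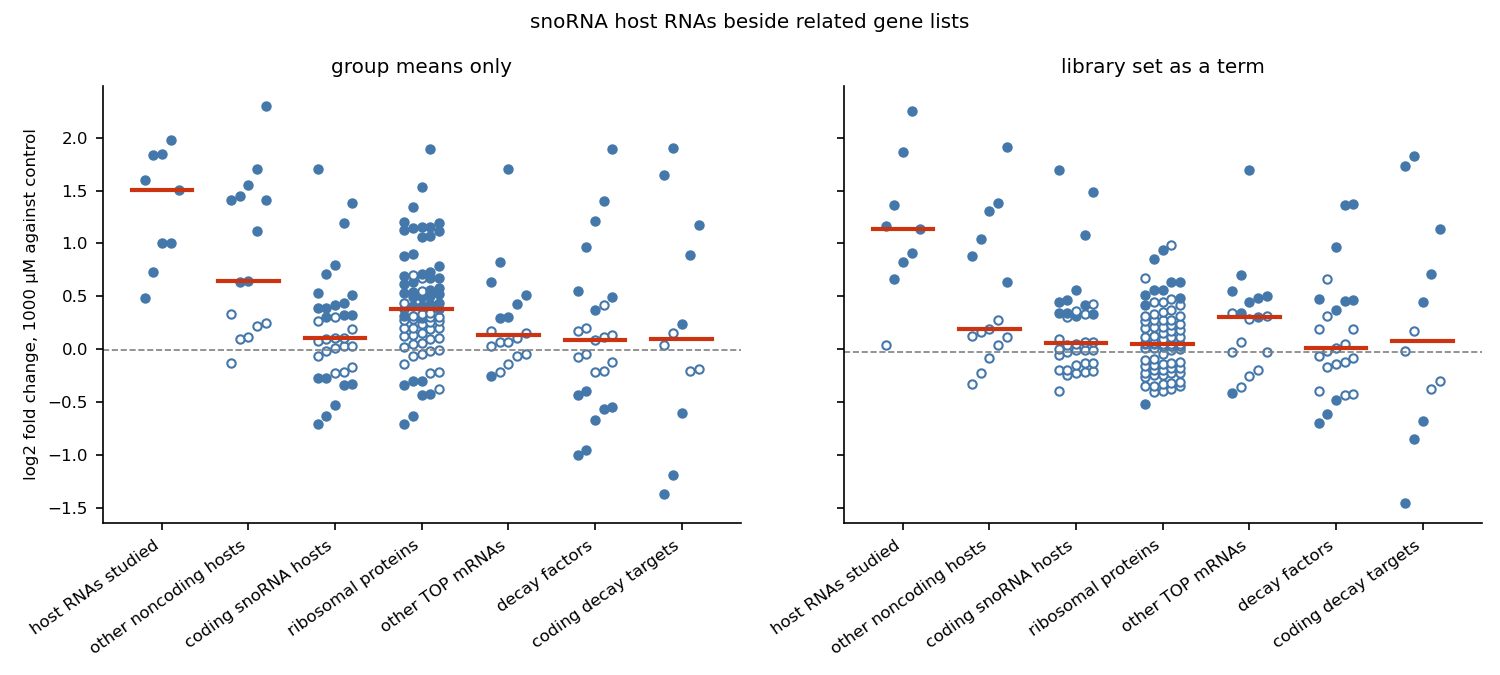
Log2 fold change at 1000 µM against control (y axis) of each tested gene (points, filled where the adjusted p was under 0.05) in the 9 host RNAs and 6 related lists (x axis), without (left) and with (right) the library set as a term. Red bars are list medians and the dashed line is the median of all features; the host RNAs have a median of 1.51 on the left and 1.14 on the right.

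Of 26 genes beside or overlapping the 10 hosts, 17 were tested at 1000 µM, with 7 higher and 3 lower (median log2 0.14), where 28.5% and 29.1% of features were. With the term 3 were higher and 2 lower, where 18.2% and 19.8% of features were. SLC3A2, an amino acid transporter subunit 224 bases from SNHG1, went from 76.0 to 175 CPM on average (1.20). ZNFX1, 121 bases from ZFAS1, was at -0.13, and ZBTB37, which overlaps GAS5, at -0.13. The use of strand in the counting is not given in the sources used here, so reads of GAS5 and ZBTB37 or GAS5-AS1, SNHG12 and TRNAU1AP, SNHG7 and DIPK1B, SNHG6 and MCMDC2, or EPB41L4A-AS1 and EPB41L4A cannot be told apart where they overlap. In control DIPK1B (0.382 CPM), MCMDC2 (0.370), GAS5-AS1 (0.261) and EPB41L4A (0.103) were far below the hosts they overlap, while TRNAU1AP (5.79 CPM) was near SNHG12 and ZBTB37 (19.0 CPM) was below GAS5. At 1000 µM these 2 had 7.44 and 17.2 CPM, GAS5-AS1 had 0.107 and EPB41L4A 0.111 CPM. DIPK1B rose to 2.96 CPM (log2 2.88, adjusted p = 0.000434) and MCMDC2 to 0.860 CPM (1.21, adjusted p = 0.00696), both still far below SNHG7 and SNHG6, and neither was called with the term.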

How the data were processed

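The authors deposited a table of raw read counts per feature for 21 libraries, as whole numbers without normalization. Per the labels' protocols, poly(dT) beads were used to purify the RNA and a SmartScribe kit to make cDNA. The submitters' processing notes name HISAT2, GRCh38 and DESeq2; versions, the counting tool, annotation release and use of strand are not given in the sources used here. The table also holds 4700 unannotated features and 21 other columns of per-sample values, which were not used. Groups came from the dose in the titles.

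With edgeR 4.0.16 in R 4.3.3, features were filtered (filterByExpr by group), TMM-scaled and tested by the robust 2-sided quasi-likelihood F-test in 1 fit over 21 libraries, with Benjamini-Hochberg adjustment over 17951 features and a threshold of 0.05. "Called", "rose" and "fell" mean an adjusted p under 0.05. The standard error is the absolute log2 fold change over the square root of F. In all, 9 comparisons were made. Library sets came from average-linkage clustering of 13 mitochondrial mRNAs (silhouette 0.571 for 3 sets, 0.525 for 2). The 10 RNAs and the lists were chosen with earlier results of these data known. In each list the 4 genes with the smallest p at 1000 µM were named, and, of all features, the 5 most correlated with the mean of the 9. The fits were also run on simulated counts. These held no difference between library sets, so they cannot show how the fits behave where set and dose coincide.

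Alternatives were DESeq2 size factors, upper-quartile scaling, scaling without mitochondrial genes, DESeq2 1.42.0, limma-voom (limma 3.58.1), a 5 CPM minimum for the mean, no filter, the replicate number as a block, the set as a term, only the 2 groups compared, sets alone, and each library left out.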

Additional observations from a re-analysis of the deposited data

How the results depend on the processing

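Over the 9 tested RNAs, the count called kept within 1.5 times its value under every alternative run except these: SNHG12 made it 1 at 1 µM with the DESeq2 Wald test, it was 0 at 10 µM with the library set as a term, and it fell from 4 to 2 at 100 µM without control replicate 1 or 2 or 100 µM replicate 1. With a single library left out the count was 0 at 0.01, 0.1 and 1 µM. SNHG15 entered some of these fits only through groups in which it had counts, so no call of it is counted here. Over the 9 RNAs alone the ranges were 2 to 4, 2 to 5 and 7 to 9 at the 3 highest doses (2 to 3, 2 to 5 and 7 to 9 higher, 0 to 1, 0 to 1 and 0 lower), 6 to 8 for 1000 against 100 µM and 8 to 9 for 1000 against 10 µM. With the set as a term the log2 fold change of SNHG8 at 100 µM turned to -0.40 (adjusted p = 0.298). Of the fold changes of single RNAs under all alternatives, 1 reversed, 54 lost their call and 11 gained one. A change of sign between values of which neither was called was not counted as a reversal. Gains were SNHG5 (0.74) and ZFAS1 (0.50) at 100 µM without control replicate 3, the same 2 without 100 µM replicate 2 (0.62 and 0.49), SNHG7 at 100 µM in 3 fits, EPB41L4A-AS1 at 10 µM in 2, SNHG12 at 1 µM as above, and SNHG5 for 1000 against 100 µM in sets B and C with the set as a term (0.43). The cause of these changes was not tested.

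The replicate numbers did not pair the libraries: same-numbered libraries had mean correlations of -0.11 to 0.15 between groups, and in 0 of 21 pairs of groups were all above 0.1. With the replicate block, 0, 0, 0, 3, 3 and 9 RNAs were called at the 6 rising doses, 9 in the joint test, 8 for 1000 against 100 µM and 9 for 1000 against 10 µM, and EPB41L4A-AS1 at 100 µM lost its call (-0.29, adjusted p = 0.0559). With 3 libraries a group, p-values measure the spread between these libraries. The depth limits SNHG15, at 0 to 13 counts, and not the other 9, which had at least 229 counts in every library. Between sets A and the others, dose and set cannot be fully told apart.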
